A study of Mus musculus with 6 samples.

Results

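Itaconate synthesis and the citric acid cycle were followed here through 9 genes in cultures of enteric glial cells (EGCs), which surround neurons of the gut's own nervous system. The cultures also held RNA of macrophage and mesenchymal markers, as given below. The genes were Irg1, whose product makes itaconate, and the 8 citric acid cycle genes Cs, Idh1, Idh2, Idh3a, Ogdh, Sdha, Fh1 and Mdh2. They were chosen by name, and all 9 were found by symbol among the 46603 gene identifiers of the count files, each with 1 identifier. EGCs had been grown from neurospheres, floating clusters of neural progenitors taken from the intestine of C57BL/6J mice at E14.5. Poly(A) RNA was sequenced from 3 untreated control cultures and from 3 cultures given LPS (lipopolysaccharide, from the outer membrane of bacteria) for 12 h at 100 ng/ml. Nothing in the labels gave the sex or number of embryos behind a culture, or said that replicates came from separate litters, so the p-values measure the spread between these samples, which may be partly technical.

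The citric acid cycle is the mitochondrial ring of reactions that oxidizes acetyl groups and feeds electrons to the respiratory chain. Irg1, listed as Acod1 in RefSeq, encodes the enzyme that removes a carboxyl group from the cycle intermediate cis-aconitate to give itaconate, a compound best known from activated macrophages. Itaconate slows succinate dehydrogenase, the enzyme of which Sdha is the catalytic subunit, and it modifies proteins such as KEAP1.

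The bases upstream of 3 of these genes are shown because they stand for the patterns described next: Irg1 rose, Fh1 fell and Cs was not called. The sequences come from the RefSeq promoter table on GRCm38.p6, which held 8 of the 9 genes; Idh3a was not matched. Each run is read 5′ to 3′ on the gene's own strand and ends at the base before the RefSeq start, or before the GENCODE start where that lies further upstream, as for Irg1. Capitals mark matches, on either strand, to the letters CCAAT (a promoter box bound by NF-Y), AANNGAAA (an interferon regulatory factor core) or GGAANTTCC (a κB-like palindrome, chosen after reading the Irg1 sequence). No match in these runs overlapped another motif. The Irg1 run covers chr14:103046762-103046976 on the plus strand, the Fh1 run chr1:175625636-175625885 on the minus strand and the Cs run chr10:128337477-128337726 on the plus strand.

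Irg1: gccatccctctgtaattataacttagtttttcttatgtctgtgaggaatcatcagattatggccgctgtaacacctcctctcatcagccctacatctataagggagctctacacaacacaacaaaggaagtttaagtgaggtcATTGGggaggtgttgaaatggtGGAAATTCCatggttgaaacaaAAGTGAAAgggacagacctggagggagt

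Fh1: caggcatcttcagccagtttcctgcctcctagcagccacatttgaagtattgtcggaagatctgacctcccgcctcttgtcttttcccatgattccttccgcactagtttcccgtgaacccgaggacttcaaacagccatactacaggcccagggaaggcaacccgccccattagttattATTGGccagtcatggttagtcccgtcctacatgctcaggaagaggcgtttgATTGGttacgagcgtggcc

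Cs: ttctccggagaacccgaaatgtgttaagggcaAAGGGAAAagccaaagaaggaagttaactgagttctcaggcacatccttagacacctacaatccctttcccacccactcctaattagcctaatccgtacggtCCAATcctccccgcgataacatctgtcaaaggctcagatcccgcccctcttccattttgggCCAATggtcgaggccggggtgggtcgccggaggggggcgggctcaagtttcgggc

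In the 250 bases before its RefSeq start, the Irg1 promoter was poor in CpG, with 2 CpG dinucleotides and a GC content of 44.4%. Of 27025 RefSeq promoters of that length, 19.5% held fewer CpG, and the median was 6. The other 7 matched promoters were richer: Fh1 had 10 CpG, Cs 13, Idh2 17, Idh1 and Ogdh 18 each, Sdha 21 and Mdh2 23. The κB-like palindrome lay 85 to 77 bases before the RefSeq start of Irg1, and its letters were present in 0.84% of all promoters. Among the 8 genes, Irg1 alone held those letters, and it alone held TATAAA, the core promoter element that TBP binds, 28 to 23 bases before the RefSeq start. TATAAA was present in 13% of promoters. In Irg1 this match lies after the GENCODE start, which is 35 bases further upstream, so it is not part of the run printed above. The interferon regulatory factor core was present in Irg1 and Cs, and in 21.6% of all promoters. CCAAT, found in 34.5% of promoters, was present in each matched gene except Mdh2. Sdha held 3 matches to CGCANGCG, a core of the nuclear respiratory factor 1 (NRF1) motif that 6.95% of promoters contained. The letters of 3 other motifs were absent from the Irg1 window: TTCNNNGAA (a STAT site, in 7.14% of promoters), TGANTCA (AP-1, 6.85%) and the NF-κB consensus (3.74%). These matches describe letters, not binding sites.

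To place the values, the cultures were first checked for their cell types. The 8 glial markers summed to 403.6, 359.4 and 286.1 CPM (counts scaled to 1e6 per library) in control replicates 1, 2 and 3 and to 339.2, 344.2 and 333.6 CPM in LPS replicates 1, 2 and 3. The sums of the 2 groups overlapped, but single glial markers moved in opposite directions. S100b, a calcium-binding protein of glia, fell from 24.7, 20.5 and 21.4 CPM to 4.94, 3.46 and 9.37 CPM (edgeR adjusted p = 0.0238), and Fabp7, a fatty acid binding protein of immature glia, rose from between 2.26 and 2.73 CPM to between 5.34 and 7.41 CPM (edgeR adjusted p = 0.0122). The call of S100b was lost without replicate 1 or 2 of either group (edgeR adjusted p up to 0.0906) and that of Fabp7 without either of control replicates 1 and 2 or without LPS replicate 2 (up to 0.0723). Without both libraries numbered 3, 2 of the 8 glial markers were called higher and 5 lower, where 22.6% of all tested genes were called higher and 20.4% lower. All 12 macrophage markers were also tested, and they summed to 3987, 5146 and 12144 CPM in control and to 3982, 5165 and 19658 CPM in LPS. The libraries numbered 3 therefore stood apart in both groups. Of the 12 macrophage markers 1 rose with LPS: Adgre1, which encodes F4/80, was at 159, 229.3 and 472.1 CPM in control and at 952.4, 1261 and 3700 CPM in LPS (edgeR adjusted p = 0.0452). The other 11 macrophage markers were not called and had log2 fold changes of both signs, from 3.15 for Aif1 to -3.08 for Mrc1. Aif1, which encodes IBA1, was at 3.56, 4.74 and 10.5 CPM in control and at 14, 14.8 and 138.9 CPM in LPS (edgeR adjusted p = 0.107). Mrc1, which encodes CD206, was at 197, 331.4 and 752.5 CPM in control and at 9.29, 10.4 and 131.3 CPM in LPS (edgeR adjusted p = 0.145). For both genes the groups did not overlap. The replicate block called 4 of the 12 macrophage markers higher and 4 lower, against 15.4% and 14.9% of all tested genes, and without both libraries numbered 3 the counts were 3 higher and 5 lower, against 22.6% and 20.4%. The neutrophil markers S100a9, Ly6g, Cxcr2 and Mpo were at or below 0.148 CPM in every library. S100a8 rose from 0.827 CPM or less to between 4.03 and 14.9 CPM (edgeR adjusted p = 0.0205), and it passed the low-count filter only because of the LPS libraries, where it is high. The edgeR calls of Adgre1 and S100a8 were lost without replicate 1 or 2 of either group (adjusted p up to 0.169 and 0.0957). All 4 smooth muscle markers fell, from a summed 2015 ± 149.1 CPM to 683.7 ± 156.4 CPM (SD, n = 3 per group), and 2 of 4 mesenchymal markers rose. The mesenchymal markers summed to 11968, 11681 and 11209 CPM in control and to 11600, 12011 and 11329 CPM in LPS. These sums were far above those of the glial markers. In the edgeR test of group alone on all 6 libraries, 9.09% of all tested genes were called higher and 6.71% lower. These shares stand behind each marker count of that test. With any 1 library left out, 2 to 4 of the smooth muscle and 0 to 2 of the mesenchymal markers were called. Those fits tested 15531 to 15626 genes and called 379 to 1964 higher and 112 to 1426 lower. The 5 neuronal markers summed to between 236.7 and 393.3 CPM in control and between 250.4 and 379.5 CPM in LPS, none of the 3 endothelial markers was called (2 were called higher with the replicate block), and the 4 epithelial markers summed to 3.06 CPM or less in every library. In such bulk samples, fewer cells of a type and less RNA per cell cannot be told apart.

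Across the 9 genes, LPS raised Irg1 from almost nothing to the highest level per kilobase of the set, while Fh1 and Idh1 fell to 0.735 and 0.789 times their control level and the remaining 6 were not called. That is 1 gene higher and 2 lower of 9, set against 9.09% of 15226 tested genes called higher and 6.71% called lower (edgeR quasi-likelihood F-test, Benjamini-Hochberg adjusted p under 0.05). The gene called higher, Irg1, passed the low-count filter only through the LPS libraries and so had to differ, and its count is no support beside that share. Over all genes the test called 1384 higher and 1022 lower, against 1050 and 1589 with upper-quartile scaling and 986 and 2054 with library size alone. The CPM ranges of the groups lay apart, with LPS higher, for Irg1, Mdh2 and Ogdh, and with LPS lower for Idh1, Idh2 and Fh1. For all tested genes the share with LPS ranges above control was 19.3% and with LPS ranges below control 19.4%. The 8 cycle genes had a median log2 fold change of -0.11, against -0.02 for all tested genes.

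**Figure D1:**
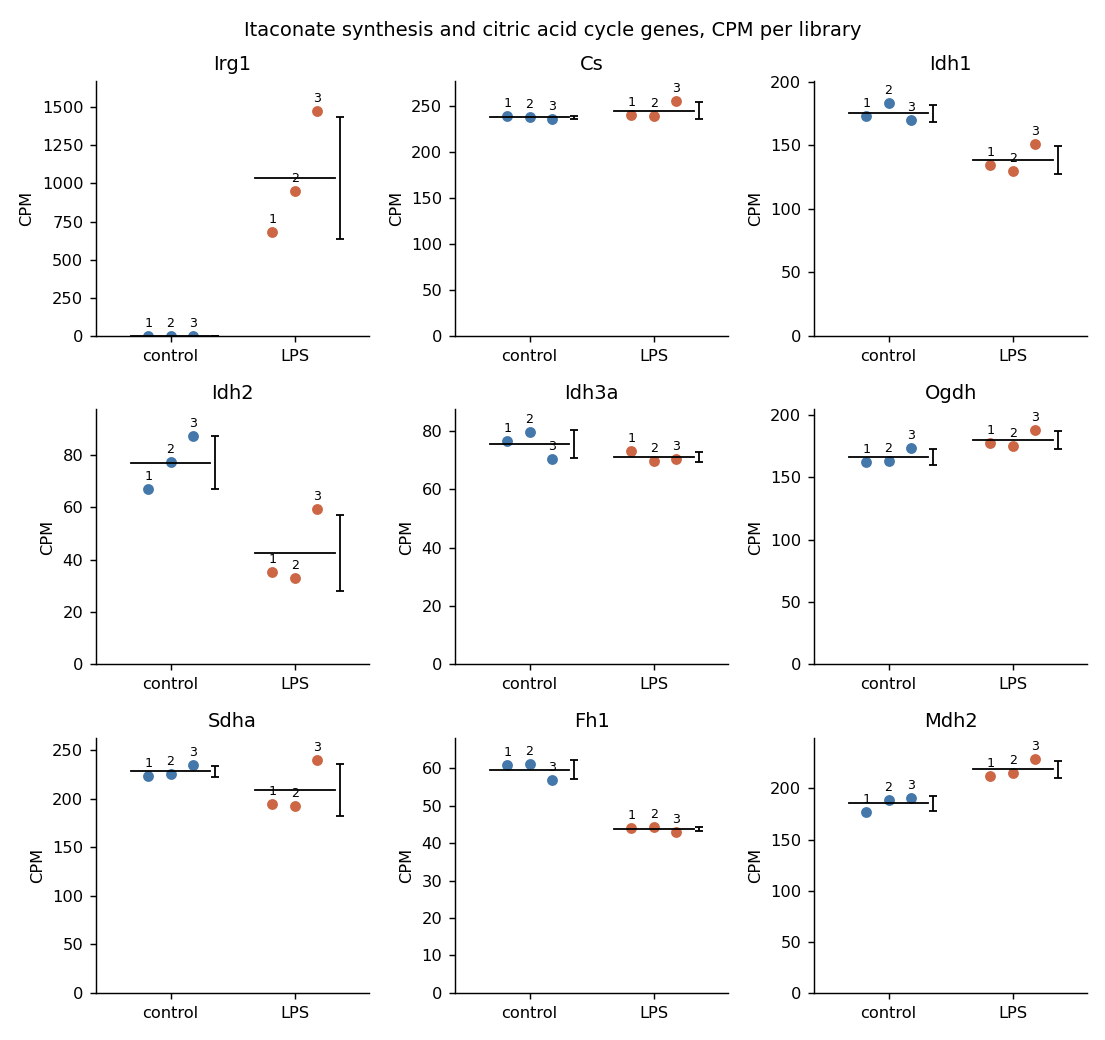
CPM of the 9 genes in each library, one panel per gene with its own axis from 0; points are libraries labelled by replicate number, the horizontal line is the group mean and the bar beside it is 1 SD (n = 3). Irg1 reaches 682.6 to 1474 CPM in LPS and is near 0 in control, and Fh1 holds the 3 LPS libraries between 43 and 44.2 CPM, below all controls.

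Irg1 (chr14:103046977-103056573, GRCm38, plus strand) encodes the itaconate-forming decarboxylase. It had 1, 4 and 0 counts in control replicates 1, 2 and 3, which is 0.0424, 0.177 and 0 CPM. In LPS replicates 1, 2 and 3 it had 13813, 17109 and 28169 counts, or 682.6, 953.4 and 1474 CPM. Every LPS library thus lay far above every control, and control replicates 1 and 3 were below the detection floor of 3 counts, which corresponds to 0.124 to 0.167 CPM. The mean CPM was 14174 times higher with LPS. Because the 3 controls held only 5 counts in all, the counting interval of that ratio runs from 6074 to 43653 (exact Poisson, 95%). The fitted log2 fold change was 13.72 ± 0.71 (SE), with an edgeR adjusted p of 0.000353. Irg1 passed the low-count filter only through the LPS libraries, so that p is no support by itself. Within the LPS group the library with the most macrophage marker RNA, replicate 3, also had the most Irg1. In LPS replicates 1 and 2 the macrophage markers summed to 3982 and 5165 CPM, and in the controls of the same number to 3987 and 5146 CPM. Most of each sum was Lyz2 (2385 and 3069 CPM in LPS, 2888 and 3490 CPM in control), and single markers such as Adgre1 and Mrc1 differed between these libraries far more than the sum. Which cells of the culture carried the Irg1 message was not tested.

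Fh1 (chr1:175600374-175625635, minus strand) encodes fumarase, which hydrates fumarate to malate. It was at 60.9, 61.1 and 56.7 CPM in control and at 44, 44.2 and 43 CPM in LPS. All LPS libraries were below all controls and close to each other. Fh1 fell by 0.44 ± 0.07 on the log2 scale (SE), to 0.735 times the control level (95% interval of the log2 change -0.61 to -0.28, edgeR adjusted p = 0.0123). The edgeR adjusted p rose above 0.05 when control replicate 1 (0.0686) or 2 (0.0814) was left out, and likewise LPS replicate 1 (0.0572) or 2 (0.0624), with the log2 change between -0.46 and -0.42 when any 1 library was left out.

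Idh1 (chr1:65158616-65186500, minus strand) encodes the isocitrate dehydrogenase of the cytosol and peroxisome, which makes NADPH outside the mitochondrial ring. It was at 173, 182.9 and 170.2 CPM in control and at 134.2, 130.1 and 150.7 CPM in LPS. The groups did not overlap, and LPS replicate 3 was the nearest to control. Idh1 fell by 0.34 ± 0.08 on the log2 scale (SE), to 0.789 times control (95% interval -0.55 to -0.14, edgeR adjusted p = 0.0454). The edgeR call was lost without control replicate 1 (adjusted p = 0.133), 2 (0.177) or 3 (0.0727) and without LPS replicate 1 (0.145) or 2 (0.162), and it remained without LPS replicate 3 (0.0142). It was also lost with no low-count filter (0.0708) and in the edgeR exact test (0.124).

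Idh2 (chr7:80094846-80115392, minus strand) encodes the mitochondrial NADP-dependent isocitrate dehydrogenase. It had the lowest fold change among the 9 genes, yet it was not called in the edgeR quasi-likelihood test of group alone with TMM scaling. It was at 66.8, 77.1 and 87 CPM in control and at 35.1, 33 and 59.4 CPM in LPS. The ranges lay apart, and replicate 3 was the highest library of both groups. The log2 fold change was -0.86 ± 0.25 (SE), with a 95% interval from -1.47 to -0.24 and an edgeR adjusted p of 0.072. With the replicate number as a block it was -0.90 ± 0.14 (SE), and Idh2 was called lower (edgeR adjusted p = 0.015). Without pairing, it was also called lower by DESeq2 (adjusted p = 0.017), by the edgeR exact test (0.0178), and in the edgeR quasi-likelihood test with upper-quartile scaling (0.037) or library size alone (0.0308). It was not called by limma-voom (adjusted p = 0.0577), with relative log expression factors (0.0754), with no filter (0.0722) or with at least 10 counts in every library (0.0708). Without LPS replicate 3 it was -1.18 and called (edgeR adjusted p = 0.00474), while leaving out any other single library left it uncalled (edgeR adjusted p from 0.133 to 0.2), and without both libraries numbered 3 it was -1.05 (edgeR adjusted p = 0.000187). The libraries with the most macrophage marker RNA were thus also those with the most Idh2 in their group, and the part of those cells in the Idh2 values was not tested.

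**Figure D2:**
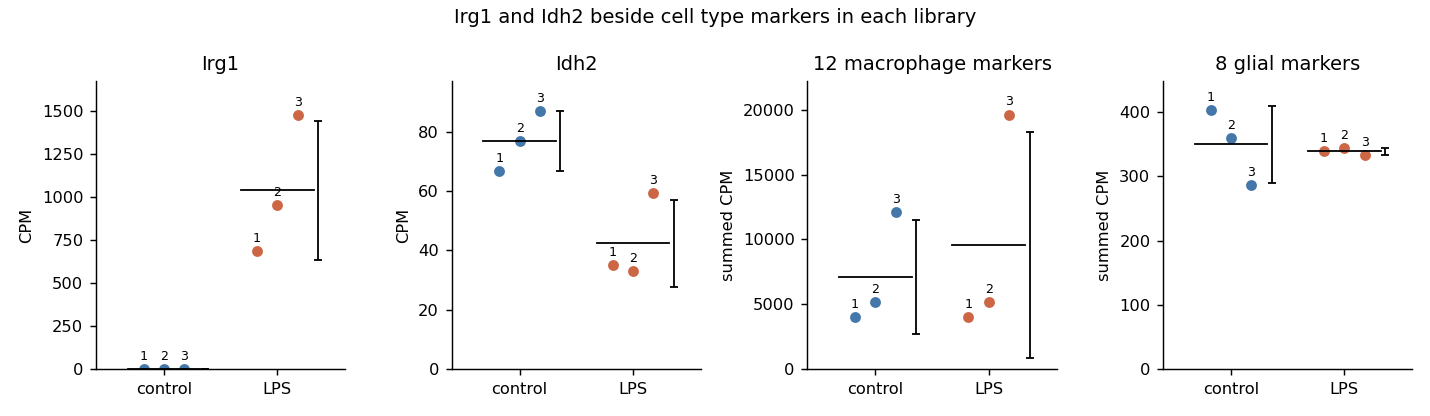
Irg1 and Idh2 in CPM, and the summed CPM of 12 macrophage and 8 glial markers, in each library (points labelled by replicate number; line, group mean; bar, 1 SD, n = 3; axes from 0). Replicate 3 is the highest library of its group for Idh2 and for the macrophage sum, which reaches 12144 CPM in control and 19658 CPM in LPS.

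The replicate block gave 2 of the 9 genes called higher and 3 lower, where 15.4% of all tested genes were called higher and 14.9% lower. Without both libraries numbered 3 the counts were 2 higher and 4 lower, against 22.6% and 20.4% of all genes. The genes added by the block were Idh2 and Mdh2, and the further gene added without the libraries numbered 3 was Sdha.

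Mdh2 (chr5:135778480-135790398, plus strand) encodes the mitochondrial malate dehydrogenase, which regenerates oxaloacetate at the end of the ring. It was at 177.2, 188.9 and 190.4 CPM in control and at 212.5, 215.4 and 228.3 CPM in LPS. All LPS libraries were above all controls. The log2 fold change was 0.24 ± 0.07 (SE, 95% interval 0.06 to 0.41), with an edgeR adjusted p of 0.0775, and Mdh2 was not called. With the replicate block it was called higher at the same log2 change (edgeR adjusted p = 0.0352), and with library size as the single scaling the change was 0.08. Mdh2 was also called higher by DESeq2 without pairing (adjusted p = 0.00638) and by edgeR without both libraries numbered 3 (adjusted p = 0.0123).

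The remaining 4 genes, Cs, Idh3a, Ogdh and Sdha, were not called. Cs (chr10:128337734-128362479, plus strand) encodes citrate synthase, which joins acetyl-CoA to oxaloacetate. It was at 239.4, 238.6 and 236.1 CPM in control and at 240.7, 239.4 and 255.9 CPM in LPS, a log2 fold change of 0.04 ± 0.07 (SE, 95% interval -0.12 to 0.21). Its groups overlapped. Of its 50-base words 2.01% are shared with the copy Csl, so a small part of its counts is uncertain, while the other 8 genes shared none with another gene. The sign for Cs turned with upper-quartile scaling (-0.06) and with library size alone (-0.11).

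Idh3a (chr9:54586334-54604661, plus strand) encodes the catalytic subunit of the NAD-dependent isocitrate dehydrogenase of the ring. It was at 76.6, 79.7 and 70.3 CPM in control and at 73, 69.7 and 70.3 CPM in LPS (log2 fold change -0.09 ± 0.07, SE, 95% interval -0.27 to 0.09). The groups overlapped. Ogdh (chr11:6291633-6356642, plus strand) encodes the first component of the 2-oxoglutarate dehydrogenase complex. It was at 162.4, 163.1 and 173.4 CPM in control and at 177.2, 174.8 and 187.9 CPM in LPS, and these ranges lay narrowly apart. Its log2 fold change was 0.11 ± 0.07 (SE, 95% interval -0.06 to 0.29) and turned to -0.04 with library size alone.

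Sdha (chr13:74322254-74350280, minus strand) encodes the flavoprotein subunit of succinate dehydrogenase, the enzyme that itaconate slows. It was at 223.9, 225.5 and 235 CPM in control and at 194.4, 192.5 and 240.3 CPM in LPS. LPS replicates 1 and 2 were below all controls and LPS replicate 3 was above them. The log2 fold change was -0.13 ± 0.11 (SE, 95% interval -0.39 to 0.14, edgeR adjusted p = 0.475). Without both libraries numbered 3 it was -0.19 and called lower (edgeR adjusted p = 0.021), and the part of macrophage RNA in replicate 3 in this difference was not tested.

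To see whether these genes stood alone, 13 other genes listed with the citric acid cycle were read from the same fit. Of these, 1 fell, none rose and 12 were not called, and their median log2 fold change was 0.06. The gene that fell was Mdh1, the cytosolic malate dehydrogenase of the malate-aspartate shuttle, which like Idh1 acts outside the mitochondrial ring. It was at 153.5, 164 and 163.7 CPM in control and at 119.2, 116.9 and 125.2 CPM in LPS, a fall of 0.41 ± 0.07 on the log2 scale (SE, edgeR adjusted p = 0.0159). All LPS libraries were below all controls. The edgeR call was lost without control replicate 1 (adjusted p = 0.0603) or 2 (0.0957) and without LPS replicate 1 (0.071) or 2 (0.0804).

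**Figure D3:**
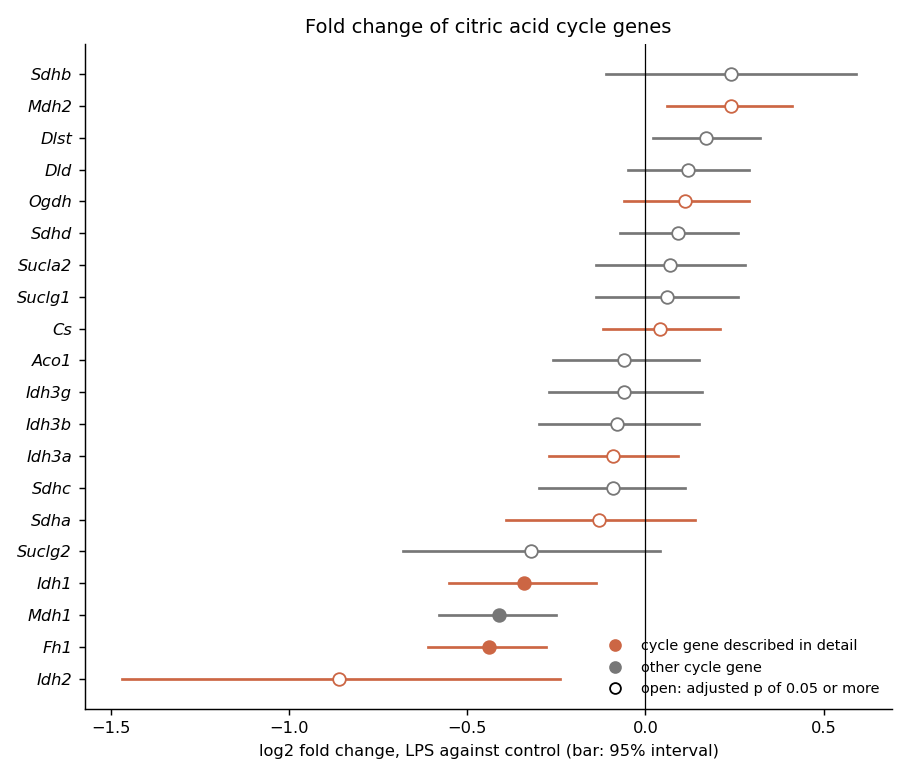
Log2 fold change of LPS against control for 8 cycle genes described in detail and 12 of the 13 others, with 95% intervals; filled points passed an edgeR adjusted p of 0.05 and open points did not. Idh1, Mdh1 and Fh1 are the filled points, at -0.34, -0.41 and -0.44, and most intervals include 0.

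Ratios within a library do not depend on the scaling. The count ratio of Idh1 to Idh2, the cytosolic against the mitochondrial NADP enzyme, was 2.59, 2.37 and 1.96 in control and 3.83, 3.94 and 2.54 in LPS. Because LPS replicate 3 fell just below control replicate 1, the groups overlapped, and the log2 ratio differed by 0.56 with a two-sided exact permutation p of 0.2, where 3 against 3 libraries allow no p below 0.1. Within pairs of equal replicate number the ratio was higher in LPS in all 3. The mitochondrial and cytosolic malate dehydrogenases had ratios that did not overlap between groups: the ratio of Mdh2 to Mdh1 was 1.15, 1.15 and 1.16 in control and 1.78, 1.84 and 1.82 in LPS. The ratio of Mdh2 to Fh1, consecutive enzymes of the ring, was 2.91, 3.09 and 3.36 in control and 4.83, 4.87 and 5.31 in LPS. These malate dehydrogenase ratios were chosen after the values were seen and carry no test.

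Between genes, levels were compared per kilobase of exon. In control, Idh1 was the highest of the 9 at 63.3 ± 2.4 CPM per kilobase (SD, n = 3), followed by Sdha at 55.3, Mdh2 at 52.1, Cs at 41.2, Ogdh at 30.5, Idh2 at 29.7, Fh1 at 17.6 and Idh3a at 14.9 CPM per kilobase, with Irg1 last at 0.0279. Ogdh and Idh2 overlapped over libraries, and the other neighbours did not. In LPS, Irg1 was first at 395.3 ± 153.4 CPM per kilobase (SD, n = 3), followed by Mdh2 at 61.4, Sdha at 50.7, Idh1 at 49.9, Cs at 42.5, Ogdh at 33, Idh2 at 16.4, Idh3a at 14 and Fh1 at 12.9. There Sdha overlapped Idh1 and Idh2 overlapped Idh3a. The order depended on the length used. With the longest transcript in place of all exons, the control order began with Mdh2, Cs, Sdha and Idh1. Further down, Idh2 then passed Ogdh and Idh3a passed Fh1. In LPS, Cs then passed Sdha and Idh1, and Idh3a passed Idh2, while Irg1 stayed at the top with Mdh2 next.

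Next, 5 further lists of the 6 around the ring were read for the routes that lead into and out of it. Of the 13 genes for pyruvate entry 1 rose and 2 fell, with a median log2 fold change of -0.09. The shares called over all tested genes were 9.09% higher and 6.71% lower, and these stand behind the counts of every list given here. With the replicate block the pyruvate list had 3 genes called higher and 3 lower, where 15.4% and 14.9% of all tested genes were called. Pdk1, a kinase that switches off pyruvate dehydrogenase, was at 31.6, 39.7 and 50.5 CPM in control and at 123.8, 154.5 and 68.9 CPM in LPS, a rise of 1.51 ± 0.33 on the log2 scale (SE, edgeR adjusted p = 0.0338). Pdk2, a kinase of the same family, fell by 0.85 ± 0.19 (SE, edgeR adjusted p = 0.0338). Pdp1, the phosphatase subunit that reverses these kinases, fell by 0.49 ± 0.12 (SE, edgeR adjusted p = 0.0438). For all 3 the LPS ranges lay apart from control, and LPS replicate 3 was the library nearest to control. The edgeR calls of Pdk1 and Pdk2 were lost without replicate 1 or 2 of either group (adjusted p up to 0.137 and 0.136), and that of Pdp1 without any library but LPS replicate 3 (up to 0.166). Pdp1 was also not called with no filter (edgeR adjusted p = 0.0546) or in the edgeR exact test (0.0525).

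Of 8 genes for citrate and malate exit and their carriers 2 fell and none rose, with a median of 0.18. Pck2, the mitochondrial enzyme that turns oxaloacetate into phosphoenolpyruvate, was at 72.6, 78.7 and 80.1 CPM in control and at 41.4, 49.8 and 59.6 CPM in LPS, a fall of 0.62 ± 0.14 on the log2 scale (SE, edgeR adjusted p = 0.0383). Me3, a mitochondrial malic enzyme, was low throughout, between 0.951 and 1.55 CPM in control and between 0.148 and 0.523 CPM in LPS (edgeR adjusted p = 0.0499), with LPS replicate 1 at the floor of 3 counts. Me3 passed the low-count filter only because of the control libraries, where it is high. Both calls were lost without any library but LPS replicate 3 (edgeR adjusted p up to 0.142 for Pck2 and 0.176 for Me3). That of Me3 was also lost with relative log expression factors (0.0500) and with no filter (0.0649). With the replicate block 3 genes of this list were called higher and 2 lower, against 15.4% and 14.9% of all tested genes. None of the 6 genes for glutamine and aspartate entry was called, and all 6 log2 fold changes were below 0, from -0.39 for the glutamine carrier Slc1a5 to -0.10 for the aminotransferase Got2. Under the replicate block the test called 2 of these 6 genes lower, where it called 14.9% of all tested genes lower.

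The 10 genes of itaconate breakdown and of reported responses to itaconate included 3 that rose and 1 that fell, with a median log2 fold change of 0.52. Nfkbiz, which encodes IκBζ, a factor whose induction itaconate derivatives are reported to block, was at 36.9, 33.2 and 26.1 CPM in control and at 189.1, 209.9 and 151.4 CPM in LPS. It rose by 2.52 ± 0.18 on the log2 scale (SE, edgeR adjusted p = 0.00124). Atf3, a stress-induced factor reported to rise with itaconate derivatives, was at 173.8, 170.2 and 159.5 CPM in control and at 102.1, 95.3 and 99.5 CPM in LPS. It fell by 0.76 ± 0.07 on the log2 scale (SE, edgeR adjusted p = 0.00259). Nfkbiz and Atf3 thus moved in opposite directions, each with no overlap between groups, and both calls remained when any 1 library was left out.

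Hmox1, which encodes the haem-degrading enzyme haem oxygenase 1 and is a target of NRF2, was at 255.7, 256.8 and 473.8 CPM in control and at 950.7, 985.4 and 1077 CPM in LPS, a rise of 1.61 ± 0.27 on the log2 scale (SE, edgeR adjusted p = 0.0162). Keap1, the inhibitor of NRF2 that itaconate modifies, rose by 0.42 ± 0.08 (SE, edgeR adjusted p = 0.0259). Gclm, an NRF2 target in glutathione synthesis, was at 52.2, 52.2 and 57.2 CPM in control and at 116.9, 137 and 67.5 CPM in LPS and was not called (edgeR adjusted p = 0.052). Nfe2l2, which encodes NRF2, was at 150.7, 159.9 and 210.8 CPM in control and at 220, 216.9 and 214.3 CPM in LPS and was not called either (edgeR adjusted p = 0.175). The NRF2 targets Nqo1, Gclc and Srxn1 were not called (edgeR adjusted p = 0.416, 0.227 and 0.119), and their groups overlapped. Their log2 fold changes were 0.26, 0.55 and 0.68, but in LPS replicate 3 Gclc was at 39.6 CPM, below all controls. With all 6 libraries, the NRF2 genes of this list were thus in part called and in part not. The edgeR call of Hmox1 was lost without replicate 1 or 2 of either group (adjusted p up to 0.0788) and that of Keap1 without any control or LPS replicate 2 (up to 0.106). With library size alone the log2 fold change of Keap1 was 0.26 and it was not called (edgeR adjusted p = 0.0548). Of the 10 genes 6 were called higher without LPS replicate 3 and 1 without either of control replicates 1 and 2 or without LPS replicate 2. Over all genes, the first of these fits called 1964 higher and the others 470, 379 and 523. Without both libraries numbered 3, 9 of the 10 were called higher, where 22.6% of all tested genes were, and with the replicate block 4 were, against 15.4% of all genes.

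Among 3 genes for the breakdown of 2-hydroxyglutarate, a by-product of isocitrate and malate dehydrogenases, 1 rose. Adhfe1, a hydroxyacid-oxoacid transhydrogenase, was at 4.45, 5.49 and 4.01 CPM in control and at 9.29, 9.81 and 9.42 CPM in LPS, a rise of 1.03 ± 0.16 on the log2 scale (SE, edgeR adjusted p = 0.0135). The groups lay well apart. Its edgeR call was lost without replicate 1 of either group and without LPS replicate 2 (adjusted p up to 0.0666). D2hgdh, the dehydrogenase of the D form, had a log2 fold change of -0.33 and was not called (edgeR adjusted p = 0.177).

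**Figure D4:**
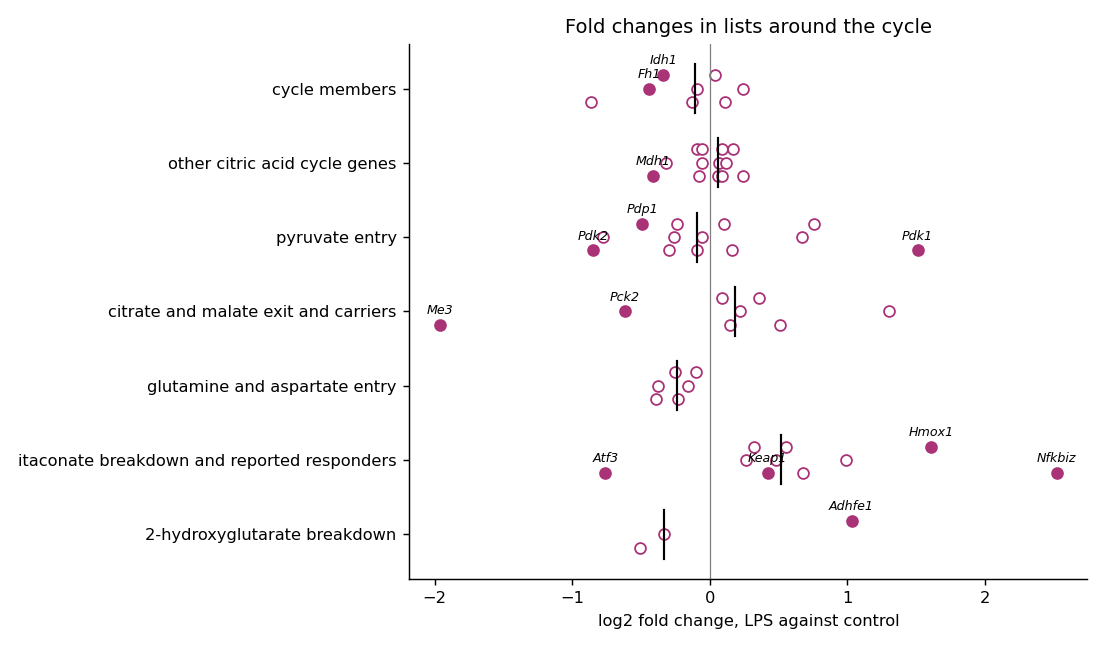
Log2 fold change of LPS against control for the genes of 7 lists; each point is a gene, filled where the edgeR adjusted p was under 0.05 and open otherwise, and the black line is the list's median. The list medians lie between -0.33 and 0.52, and the most distant genes are Nfkbiz at 2.52 and Me3 at -1.96.

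Finally, the genes whose change was most like that of Irg1 were sought over the 6 libraries, by the root mean square difference of log2 CPM after centring each gene on its own mean. The 3 nearest were Ccl5, a chemokine, at a distance of 0.563, Il1b, an inflammatory cytokine, at 1.05, and Marco, a scavenger receptor, at 1.39. Ccl5 was at 0.127, 0.221 and 0.248 CPM in control and at 1084, 1483 and 1626 CPM in LPS. Il1b was at 0, 0 and 0.124 CPM in control and at 399.5, 499.8 and 321.9 CPM in LPS. Marco was at 0.975, 2.66 and 1.53 CPM in control and at 920.6, 1510 and 3918 CPM in LPS. Like Irg1, Ccl5 and Il1b were at or below 0.248 CPM in all controls, and Ccl5 and Marco also shared with Irg1 the order of the LPS libraries, lowest in replicate 1 and highest in replicate 3.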

How the data were processed

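RNA was isolated with a Qiagen RNeasy micro kit, and libraries were made with the Illumina TruSeq Stranded mRNA kit from 3 control and 3 LPS cultures. The authors deposited raw counts per gene, one table per library. The submitters' processing notes name cutadapt 1.15, Bowtie2 2.3.3.1, STAR 2.5.2b, SAMtools 1.5 and featureCounts 1.5.3; the genome was GRCm38, and the strand setting of the counting was not given in the sources used here. A table of the whole series held the same values (0 cells differed) and was not used. Library totals ranged from 18775316 to 23664312 counts. PCR copies cannot be recognized, so floors and intervals cover counting error only.

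Genes were filtered with filterByExpr (minimum count 10, minimum total 15), which left 15226, among them all 9 genes followed here. CPM were computed on library sizes scaled with TMM (trimmed mean of M-values), whose factors lay between 0.917 and 1.08. Groups were compared with the edgeR 4.0.16 quasi-likelihood F-test (R 4.3.3), two-sided, on a design of group alone, and p-values were adjusted over the 15226 genes by Benjamini-Hochberg. The test was checked on simulated counts. Coordinates, exons and lengths came from GENCODE M21. Alternatives were other scalings and filters, DESeq2 1.42.0, the edgeR exact test, limma-voom (limma 3.58.1), the replicate number as a block, and libraries left out. Deviations from the group means correlated between control and LPS libraries of the same number (r = 0.513, 0.334 and 0.613 across genes for numbers 1, 2 and 3), so the numbers were taken as pairing the samples, from the data and not from the labels. Numbers 1 and 2 are not told apart by this check (r = 0.419 between control 1 and LPS 2, 0.323 between control 2 and LPS 1), and number 3 correlated negatively with both. The genes followed, the lists and the tests were chosen with earlier results of these data known. Named were all 9 genes, every called gene of a list (up to 5, or the extremes where none was called), the 3 nearest profiles to Irg1 and cell type markers. Gclm, Nfe2l2, Nqo1, Gclc, Srxn1 and D2hgdh were named after their values were seen. Some genes that entered the tests and counts are not reported here by themselves.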

Additional observations from a re-analysis of the deposited data

How the results depend on the processing

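Over 16 alternative fits, Irg1 was called higher in each fit that tested it. In the filtered fits it passed only through the LPS libraries, so these calls are no further support. Its log2 fold change ran from 13.16 to 15.24 when any 1 library was left out, and was 12.83 without both libraries numbered 3. Irg1 is absent where at least 10 counts in every library were required, so 0 of the 9 genes were then called higher, and 2 lower. That fit called 1204 of 13817 genes higher and 968 lower. The edgeR quasi-likelihood test without a filter called 1 of the 9 higher and 1 lower, against 1114 higher and 816 lower of 24879 genes. Of the 9 genes, those called higher were 2 with DESeq2, 2 with the replicate block and 2 without both libraries numbered 3, and 4 were called lower in the last of these. Leaving out 1 library gave 0 to 3 of the 9 lower, 379 to 1964 of all genes higher and 112 to 1426 lower. Over all genes, DESeq2 called 2079 higher and 1673 lower, the replicate block 2343 and 2273, and the fit without both libraries numbered 3 called 3498 and 3159, against 1384 and 1022. Beside Idh2 and Mdh2, the replicate block changed no call of the 9 genes. Upper-quartile scaling and library size alone moved the median of all genes from -0.02 to -0.12 and -0.18, called 1589 and 2054 genes lower and 1050 and 986 higher, and moved the median of the 8 cycle genes from -0.11 to -0.21 and -0.26. They turned the sign of Cs (-0.06 and -0.11), and library size alone that of Ogdh (-0.04). The cause of these shifts was not tested.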
